A study of Homo sapiens with 18 samples.

Results

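The genes described here are 45 that run, restrain or mark the cell division cycle: the D cyclins and their kinases, the E, A and B cyclins with CDK1, CDK2 and CDC25A, the CDK inhibitors, the pocket proteins and E2F factors, replication and S-phase genes, mitosis markers and the MYC family. They were taken by symbol from the deposited expression table, where all 45 were found among 37550 rows. Of these, 44 had at least 1 TPM in at least 2 libraries and were tested. The remaining gene, CDKN2C, was listed at 0 and 0.0273 TPM in hPSC and at no more than 0.672 TPM in any library.

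Messenger RNA was sequenced from H1, an established wild-type human embryonic stem cell line, in 18 libraries: 9 groups of 2 replicates, which the series calls distinct biological replicates without saying how they were separated. Undifferentiated cells (hPSC, day 0) were compared with day-2 neural ectoderm of an anterior (aNE) or a posterior kind (pNE), and with either of these carried to day 4 in forebrain medium (aNE_T, pNE_T), midbrain medium (aNE_M, pNE_M) or hindbrain medium (aNE_H, pNE_H). All differentiated cells passed through a definitive ectoderm medium on day 1 that held the TGF-beta receptor inhibitor A8301 at 1 µM, the MEK inhibitor trametinib at 250 nM, the porcupine inhibitor C59 at 1 µM and the BMP receptor inhibitor LDN193189 at 100 nM. They were then replated as single cells with the ROCK inhibitor thiazovivin. The day-2 aNE medium kept A8301, LDN193189 and C59. The pNE medium held A8301 and LDN193189 with FGF2 (20 ng/mL), XAV939 (a tankyrase inhibitor, 1 µM) and TTNPB (a retinoid, 50 nM). Cells for day 2 were plated at 37500 cells per cm2, and cells for day 4 at 75000 (aNE) or 150000 (pNE) cells per cm2, so at day 4 origin and density cannot be told apart, and density changed with day as well. What the midbrain and hindbrain media contained is not used here.

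Each library held 13686 to 14679 genes with at least 1 TPM. TPM keeps no record of read number, so the depth is unknown and no counting interval is given. Mitochondrial genes took 0.960% to 1.23% of TPM in hPSC and 1.53% to 3.74% in the 16 other libraries. Marker genes of the labelled states were examined, and not all followed the labels. POU5F1 was 2899.8 and 2878 TPM in hPSC, 162 and 164 TPM in aNE and at most 7.28 TPM at day 4. LIN28A, another pluripotency marker, was 737 and 726 TPM in hPSC but 1342 and 1302 TPM in aNE. PAX6 was 28.9 and 29.3 TPM in aNE but 1.34 and 2.54 TPM in pNE. The summed 7 neural progenitor markers were highest in aNE_T at 840 to 854 TPM. They were 149 to 164 TPM in pNE_H and 187 to 235 TPM in aNE_H, against 225 to 231 TPM in hPSC. In midbrain medium the sum was 268 to 272 TPM in aNE_M and 246 to 254 TPM in pNE_M. Of this, ZNF521 alone was 148 and 158 TPM in aNE_M and 121 and 138 TPM in pNE_M. PAX6 was 2.72 and 3.37 TPM in aNE_M and 0.508 and 0.232 TPM in pNE_M. SOX2 was 70.4 to 127 TPM in midbrain and hindbrain media but 194 and 188 TPM in hPSC. These markers do not settle the neural label of the midbrain and hindbrain groups. Of the 11 neuron markers examined, ELAVL4 and NEUROD1 were at or near 0 in every group, with ELAVL4 highest in pNE_H at 0.676 and 1.13 TPM. Other neuron markers were present: TUBB3 was 233 and 219.7 TPM in hPSC and highest in aNE_M at 536 and 489.7 TPM, MAP2 was highest in aNE_T at 104 and 98.2 TPM, STMN2 was 20.4 and 22.4 TPM in aNE_M, and NEUROG2, a proneural factor, was 24.8 and 14.2 TPM in pNE_M. In bulk RNA a lower value can mean fewer cells of a type or less RNA per cell, and these cannot be told apart here.

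D cyclins with CDK4 or CDK6, and then cyclin E with CDK2, phosphorylate the pocket proteins (RB1, RBL1 and RBL2), which releases E2F factors to switch on replication genes. The CIP/KIP inhibitors (CDKN1A, CDKN1B, CDKN1C) bind cyclin and CDK complexes, the INK4 inhibitors (CDKN2A, CDKN2C, CDKN2D) bind CDK4 and CDK6, and MYC proteins drive growth and entry into the cycle. Pluripotent stem cells are known for a short G1 phase, and neural progenitors lengthen G1 as they approach differentiation.

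Promoters of 36 of the 45 genes were matched by symbol in a RefSeq table (GRCh38.p14) of 250 bases before and 50 after 1 listed start per gene. The listed start is not always the outermost one. The RB1 window, chr13:48476200-48476499, lies well inside the gene, which starts at 48303751, so it may miss the main promoter. The CDKN1A window also lies inside its gene, which starts at 36676463. MYC, CDKN1C, CCND1, CCND2, CCNE2, CDK2, MCM4, MCM5 and AURKA were not matched. Both strands were searched for an E2F site (TTTCGCGC or TTTGGCGC) and for the cell cycle homology region found in genes of late phases, spelled TTTGAA in one form and TTTAAA in the other. They were also searched for the CCAAT box, by those letters, and for the E box that MYC with MAX can bind, CACGTG. The E2F letters were in 10 of the 36 (27.8%) against 1.18% of 27305 promoters. The cell cycle homology letters were in 14 (38.9%) against 24.3%, the CCAAT letters in 20 (55.6%) against 35.7%, and the E box in 7 (19.4%) against 7.43%. By role, 4 of 7 replication promoters (MCM2, MCM3, MCM6, MCM7) and 0 of 7 mitosis promoters held the E2F letters, whereas 5 of 7 mitosis promoters (MKI67, TOP2A, PLK1, BUB1B, CDC20) and 1 of 7 replication promoters (RRM2) held the cell cycle homology letters. A match is a description of letters and not of binding.

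These 6 promoters are of genes described below. MCM3 and MCM6 are replication genes that were lower at day 4 in anterior cells, and CCNB2 and CDC20 are late genes. The ratio of the highest to the lowest group mean was 1.85 for MCM3, 1.59 for MCM6, 1.41 for CCNB2 and 1.51 for CDC20. CDKN1A is an inhibitor that rose at day 2, and MYCN is the MYC gene that was lowest in forebrain medium. Each sequence runs 5′ to 3′ along its gene, with matches to the E2F, cell cycle homology and CCAAT letters on either strand in capitals. The positions are chr6:52284693-52284992, minus strand (MCM3); chr2:135876394-135876693, minus strand (MCM6); chr15:59104896-59105195, plus strand (CCNB2); chr1:43358731-43359030, plus strand (CDC20); chr6:36678464-36678763, plus strand (CDKN1A) and chr2:15940300-15940599, plus strand (MYCN).
MCM3: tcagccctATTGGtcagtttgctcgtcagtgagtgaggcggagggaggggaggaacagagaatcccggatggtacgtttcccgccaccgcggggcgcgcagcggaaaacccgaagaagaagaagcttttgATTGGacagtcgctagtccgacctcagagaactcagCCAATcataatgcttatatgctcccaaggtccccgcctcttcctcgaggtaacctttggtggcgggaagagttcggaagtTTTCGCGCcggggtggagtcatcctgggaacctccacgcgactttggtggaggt
MCM6: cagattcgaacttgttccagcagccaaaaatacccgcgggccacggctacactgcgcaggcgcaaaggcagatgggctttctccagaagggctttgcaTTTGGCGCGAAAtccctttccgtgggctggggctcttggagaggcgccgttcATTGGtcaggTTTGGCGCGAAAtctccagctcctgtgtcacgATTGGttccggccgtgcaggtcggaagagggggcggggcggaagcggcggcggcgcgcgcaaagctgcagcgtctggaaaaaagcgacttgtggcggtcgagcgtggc
CCNB2: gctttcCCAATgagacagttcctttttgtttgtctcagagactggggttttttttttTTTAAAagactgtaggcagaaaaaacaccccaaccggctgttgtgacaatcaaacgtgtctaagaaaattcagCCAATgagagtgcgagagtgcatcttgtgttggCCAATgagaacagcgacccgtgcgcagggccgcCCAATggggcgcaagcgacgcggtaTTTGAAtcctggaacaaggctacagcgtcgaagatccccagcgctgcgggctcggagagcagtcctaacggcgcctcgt
CDC20: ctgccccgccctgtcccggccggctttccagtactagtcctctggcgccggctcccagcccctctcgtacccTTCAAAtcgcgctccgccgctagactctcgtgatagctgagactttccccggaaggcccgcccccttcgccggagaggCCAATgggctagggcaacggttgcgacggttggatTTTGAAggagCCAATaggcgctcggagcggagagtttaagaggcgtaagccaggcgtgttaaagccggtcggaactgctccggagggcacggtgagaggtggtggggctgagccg
CDKN1A: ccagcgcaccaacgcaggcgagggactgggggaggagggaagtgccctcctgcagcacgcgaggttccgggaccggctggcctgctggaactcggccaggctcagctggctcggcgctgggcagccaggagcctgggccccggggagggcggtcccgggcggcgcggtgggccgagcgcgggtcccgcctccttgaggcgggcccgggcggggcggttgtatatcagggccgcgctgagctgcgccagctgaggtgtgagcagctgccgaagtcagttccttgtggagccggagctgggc
MYCN: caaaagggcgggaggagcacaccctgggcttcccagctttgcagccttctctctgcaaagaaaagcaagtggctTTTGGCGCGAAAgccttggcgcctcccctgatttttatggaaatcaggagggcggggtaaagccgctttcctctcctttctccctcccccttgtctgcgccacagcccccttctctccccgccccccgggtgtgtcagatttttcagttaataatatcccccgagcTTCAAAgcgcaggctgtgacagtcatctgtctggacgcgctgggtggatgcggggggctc
In MCM6 and MYCN the run TTTGGCGCGAAA reads as an E2F site on both strands, once in MYCN and at a pair of places in MCM6. The CDKN1A window held none of these 3 motifs.

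Calls were concentrated in a few regulators, and most of the machinery was not called. The threshold for a call was an adjusted p under 0.05 together with a 2-fold difference or more on the log2(TPM + 1) scale, and "rose" and "fell" are kept for such calls. Over 18 comparisons of 2 groups, 14 of the 44 tested genes were called at least once and 30 never. The 14 were CCND1, CCND2, CDK6, CCNE1, CCNE2, CDKN1A, CDKN1C, CDKN2A, CDKN2D, E2F2, MCM5, MYC, MYCN and MYCL. Inhibitors gave 21 of the 52 calls and the MYC family 17, whereas the 9 replication genes gave 1 and the 8 mitosis markers gave 0. Most inhibitor calls were of 2 genes: CDKN2A gave 10 and CDKN1C 8, against 2 for CDKN1A, 1 for CDKN2D and 0 for CDKN1B. Per comparison, 0% to 13.6% of the 44 genes were called, against 3.85% to 13.5% of all genes. How many of all genes were called at least once was not counted, so 14 of 44 has no such share beside it. The ratio of the highest to the lowest group mean ran from 1.21 (AURKA) to 1.61 (BUB1) among mitosis markers and from 1.30 (MCM7) to 2.78 (TYMS) among replication genes. Among the MYC genes it ran from 5.10 (MYCN) to 9.58 (MYC).

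**Figure D1:**
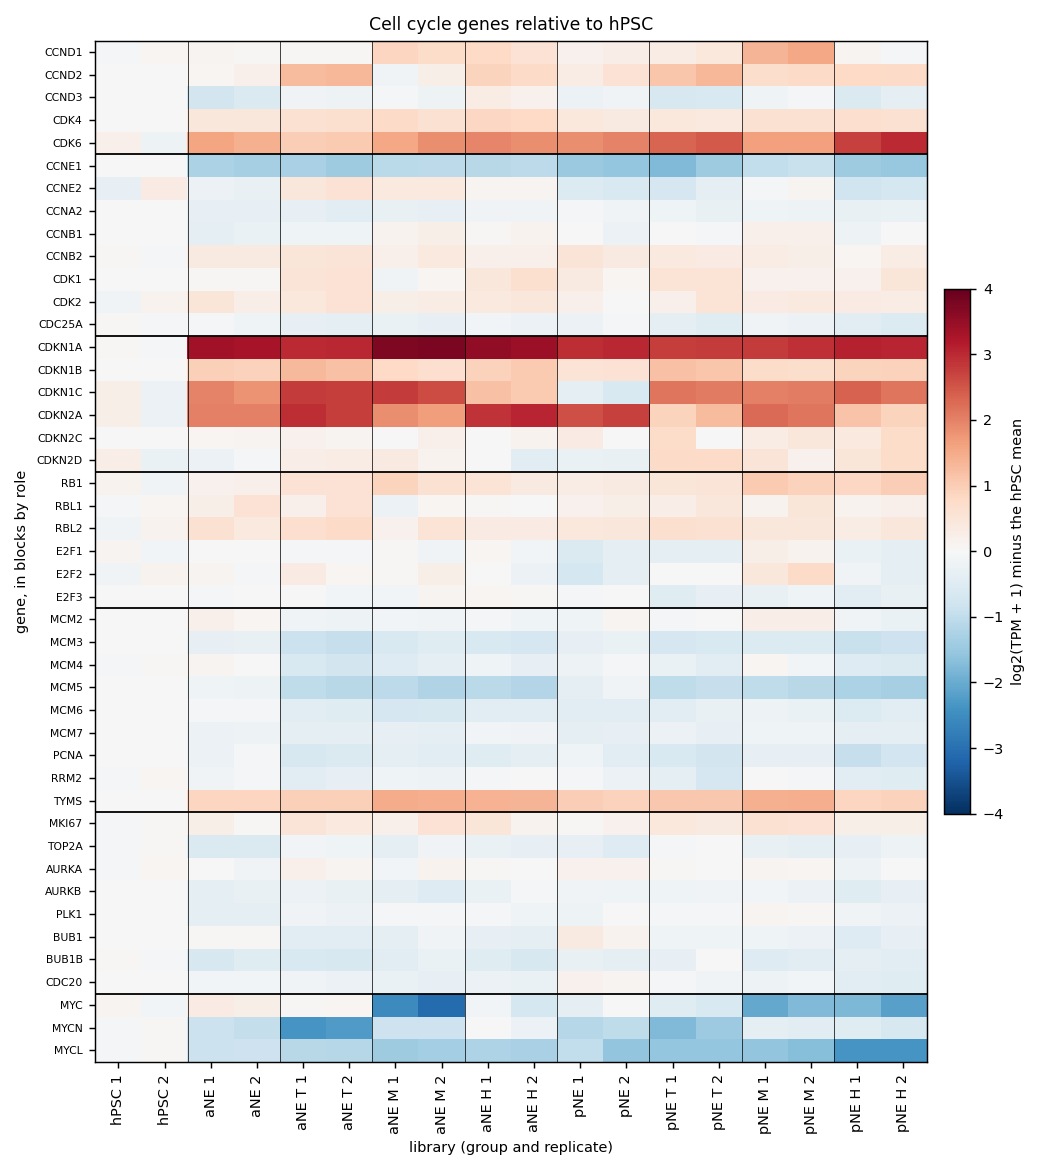
Level of each of the 45 genes (rows, in blocks by role) in each of the 18 libraries (columns), as log2(TPM + 1) minus the mean of the 2 hPSC libraries; red is higher and blue lower. CDKN1A, CDK6 and TYMS are above hPSC in all 16 differentiated libraries, CCNE1 and MYCL are below it in all 16, and every mitosis marker stays within 1 log2 unit of hPSC.

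In no comparison was the share of cell cycle genes called far above that of all genes. Against hPSC, 5 of 44 were called in aNE, 4 higher and 1 lower (13.5% of all genes called), and 6 in pNE, 3 higher and 3 lower (12.9%). At day 2, 1 was called between the origins (3.85%). From day 2 to day 4, 2 were called in aNE_T (9.03%), 1 in aNE_M (12.0%) and 0 in aNE_H (10.1%). Although none was called in aNE_H, 22 of 44 passed there at the limma adjusted p alone (31.3% of all genes did). Without aNE_H replicate 1, CDKN2A was called there, and without aNE_M replicate 1, MCM5 was added in aNE_M. The posterior series gave 3 in pNE_T (10.2%), 4 in pNE_M (12.7%) and 5 in pNE_H (12.3%). Between origins in 1 medium, 3 were called in forebrain medium (7.77%), 0 in midbrain medium (5.74%) and 4 in hindbrain medium (6.83%). In midbrain medium 11 of 44 passed at the limma adjusted p alone (16.6% of all genes), and MYC was called there with a pseudocount of 0.1, without aNE_M replicate 1 or without pNE_M replicate 1.

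Between media within 1 origin, where density was equal, 4 were called in aNE_M against aNE_T (10.1%), 2 in aNE_H against aNE_T (6.60%) and 3 in aNE_H against aNE_M (4.92%). Among posterior cells the counts were 4 for pNE_M against pNE_T (8.60%), 2 for pNE_H against pNE_T (5.03%) and 3 for pNE_H against pNE_M (5.99%). The difference between the origins' responses to a medium, tested as an interaction, was called for 2 genes in forebrain (7.14%), 3 in midbrain (7.02%) and 4 in hindbrain medium (7.83%). Without pNE_T replicate 1 or pNE_H replicate 1 the count for pNE_H against pNE_T was 1, and without pNE_T replicate 1 the forebrain interaction had 4. Comparisons that share libraries, such as those against hPSC, are not independent of each other.

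CDKN1A, which encodes p21 and is a textbook target of p53, rose at day 2 in both origins. It was at 11.0 and 10.3 TPM in the hPSC libraries. In aNE it was at 117 and 113 TPM, and pNE had 88.7 and 94.2 TPM. No library of either day-2 group came near the hPSC level. The rise was 9.97-fold in aNE (log2 difference 3.32, SE 0.07, limma adjusted p = 1.81e-12). It was 7.93-fold in pNE (log2 difference 2.99, SE 0.07, limma adjusted p = 6.73e-12). CDKN1A stayed high at day 4, 78.6 to 156 TPM over the 12 libraries, highest in aNE_M at 155 and 156 TPM, and no comparison between differentiated groups was called. At the adjusted p alone it was lower in pNE_M than in aNE_M (log2 difference -0.89, SE 0.07, limma adjusted p = 7.19e-07).

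Most of the 14 other p53 targets examined rose with it at day 2. In aNE 10 rose and none fell, with a median log2 difference of 1.57 against 0.07 over all genes, of which 7.36% rose. In pNE 10 rose and none fell, with a median of 1.36 against 0.05 (7.14% of all genes rose). BTG2, an antiproliferative gene, was 35.0 ± 1.14 against 2.75 ± 0.0534 TPM (SD, n = 2 each; log2 difference 3.26, SE 0.08, limma adjusted p = 8.1e-12) in aNE against hPSC. GADD45A, a stress-induced growth arrest gene, was 102 ± 3.96 against 16.1 ± 1.57 TPM (SD, n = 2 each; log2 difference 2.59, SE 0.10, limma adjusted p = 1.05e-09) in the same comparison. Medium, MEK inhibition on day 1, replating as single cells and the mitochondrial share, which was 3.19% and 3.28% in aNE against 0.960% and 1.23% in hPSC, changed together with day and cannot be told apart from it.

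CDKN1B (p27) had a smaller shift that missed the 2-fold threshold. Its levels were 18.4 and 18.3 TPM in hPSC, 36.1 and 35.5 TPM in aNE and 27.0 and 27.9 TPM in pNE. It reached 46.2 and 42.4 TPM in aNE_T. All 16 differentiated libraries lay above both hPSC libraries. At the adjusted p alone it was higher in aNE (log2 difference 0.93, SE 0.08, limma adjusted p = 7.51e-07) and in pNE (log2 difference 0.56, SE 0.08, limma adjusted p = 7.06e-05).

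CDKN1C (p57), which in development accompanies cell cycle exit, separated the origins at day 2. It was at 12.4 and 8.81 TPM in hPSC, 44.8 and 38.6 TPM in aNE and 7.94 and 6.59 TPM in pNE. The aNE libraries stood above all others of days 0 and 2, and pNE lay below hPSC. CDKN1C rose in aNE over hPSC (log2 difference 1.89, SE 0.14, limma adjusted p = 3.16e-07), whereas the value for pNE over hPSC was -0.48 (SE 0.14, adjusted p = 0.0161) by limma and was not called. Between the day-2 origins it was the only gene of the set called, 5.17-fold lower in pNE (log2 difference -2.37, SE 0.14, limma adjusted p = 1.4e-07), at equal plating density.

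From pNE, CDKN1C rose in all 3 media by day 4. It was at 49.8 and 47.8 TPM in pNE_T, 44.96 and 46.1 TPM in pNE_M and 57.4 and 50.0 TPM in pNE_H. In aNE-derived cells it was at 78.7 and 77.3 TPM in aNE_T, 78.2 and 68.4 TPM in aNE_M and 25.1 and 22.7 TPM in aNE_H. The posterior groups lay close together across media, while aNE_H stood apart from the other anterior groups and below aNE itself. The rise from pNE was 2.60 (SE 0.14, adjusted p = 2.21e-08) in forebrain, 2.50 (SE 0.14, adjusted p = 2.01e-08) in midbrain and 2.73 (SE 0.14, adjusted p = 1.07e-08) in hindbrain medium, as limma log2 differences. Within anterior cells it was lower in aNE_H than in aNE_T (log2 difference -1.67, SE 0.14, limma adjusted p = 2.49e-06) and than in aNE_M (log2 difference -1.58, SE 0.14, limma adjusted p = 4.07e-06). In hindbrain medium it was higher in pNE_H than in aNE_H (log2 difference 1.14, SE 0.14, limma adjusted p = 5.79e-05). In the other media it was lower in posterior cells, at the adjusted p alone. The value was -0.67 (SE 0.14, adjusted p = 0.00358) for pNE_T against aNE_T and -0.67 (SE 0.14, adjusted p = 0.00441) for pNE_M against aNE_M, as limma log2 differences.

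**Figure D2:**
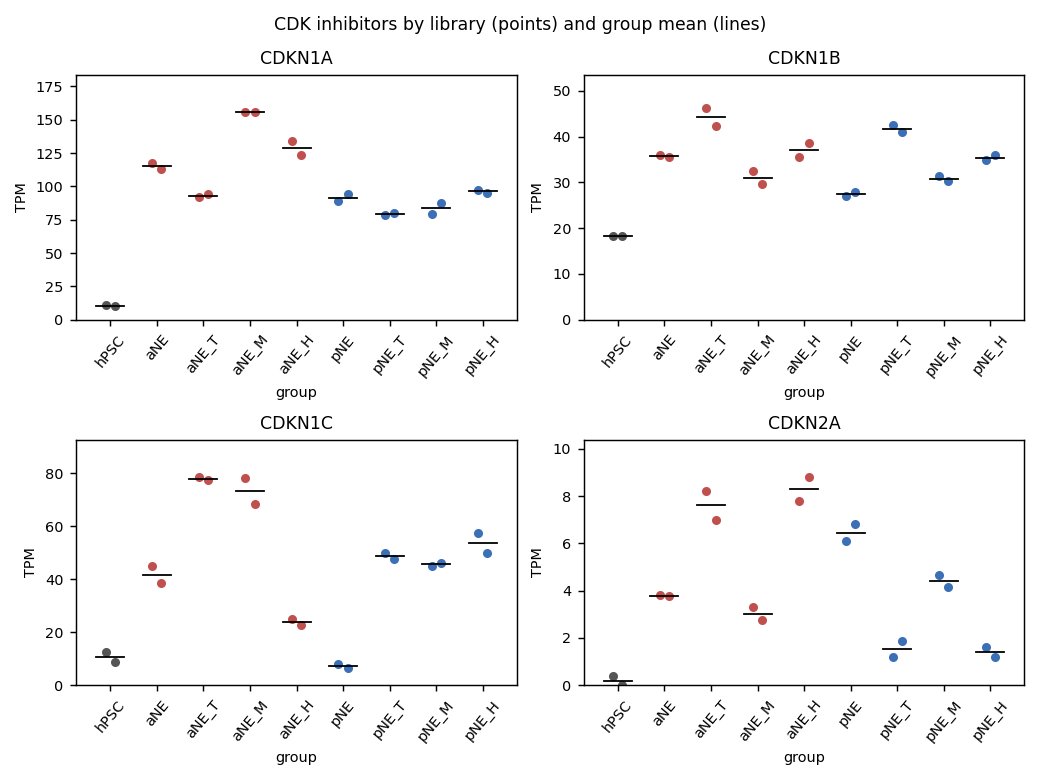
TPM of 4 CDK inhibitors in each library (points) with group means (lines), grey for hPSC, red for aNE and its derivatives and blue for pNE and its derivatives; each vertical axis starts at 0. CDKN1A steps up at day 2 and stays up, CDKN1C is near the hPSC level in pNE and high in all pNE-derived day-4 groups, and CDKN2A is highest in aNE_T and aNE_H among day-4 groups.

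CDKN2A, the INK4 locus that encodes p16 and, from another first exon, ARF, was low throughout. The table has 1 row for the gene, so its products were not separated, and the antisense gene CDKN2B-AS1 overlaps it. It was listed at 0.388 and 0 TPM in hPSC and was 3.81 and 3.76 TPM in aNE and 6.09 and 6.80 TPM in pNE. Since 1 hPSC library is at 0, no fold is given. It rose in aNE (log2 difference 2.02, SE 0.19, limma adjusted p = 2.9e-06) and in pNE (log2 difference 2.66, SE 0.19, limma adjusted p = 2.39e-07).

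After day 2 CDKN2A separated the origins in forebrain and hindbrain media. It was at 8.21 and 7 TPM in aNE_T, 3.29 and 2.77 TPM in aNE_M and 7.79 and 8.79 TPM in aNE_H. The posterior values were 1.21 and 1.86 TPM in pNE_T, 4.67 and 4.16 TPM in pNE_M and 1.60 and 1.21 TPM in pNE_H. In midbrain medium both pNE_M libraries were above both aNE_M libraries, and the difference did not pass (log2 difference 0.43, SE 0.19, limma adjusted p = 0.163). In forebrain and hindbrain media every anterior library was above every posterior one. It fell from pNE in forebrain (log2 difference -1.56, SE 0.19, limma adjusted p = 3.53e-05) and hindbrain medium (log2 difference -1.63, SE 0.19, limma adjusted p = 1.95e-05). It was lower in pNE_T than aNE_T (log2 difference -1.77, SE 0.19, limma adjusted p = 1.46e-05) and in pNE_H than aNE_H (log2 difference -1.95, SE 0.19, limma adjusted p = 7.04e-06). Between media it was lower in aNE_M than aNE_T (log2 difference -1.09, SE 0.19, limma adjusted p = 0.000614) and higher in aNE_H than aNE_M (log2 difference 1.21, SE 0.19, limma adjusted p = 0.000637), and both calls were lost with a pseudocount of 0.1 (limma adjusted p = 0.0730 and 0.0910), the first also without aNE_T replicate 1. Among posterior cells it was higher in pNE_M than pNE_T (log2 difference 1.10, SE 0.19, limma adjusted p = 0.000674), a call lost without pNE_T replicate 1, and lower in pNE_H than pNE_M (log2 difference -1.17, SE 0.19, limma adjusted p = 0.000658).

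The other INK4 genes were low as well. CDKN2D (p19) was 3.47 and 2.07 TPM in hPSC, 2.12 and 2.55 TPM in aNE and 2.11 and 2.03 TPM in pNE. At day 4 it was 3.43 and 3.56 TPM (aNE_T), 3.77 and 3.09 TPM (aNE_M), 2.66 and 1.79 TPM (aNE_H), 5.33 and 5.33 TPM (pNE_T), 4.32 and 3.20 TPM (pNE_M) and 4.13 and 5.12 TPM (pNE_H). The pNE_T libraries were the 2 highest, and CDKN2D rose there from pNE (log2 difference 1.04, SE 0.21, limma adjusted p = 0.00163). CDKN2C (p18) did not reach 1 TPM in any library and was not tested.

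The D cyclins differed in the group where their level was highest. CCND1 was at 89.2 and 102 TPM in hPSC and at day 2 103 and 99.0 TPM (aNE) and 107 and 113 TPM (pNE). At day 4 it was 246 and 278 TPM in pNE_M and 174 and 160.3 TPM in aNE_M, both in midbrain medium, and 167 and 142 TPM in aNE_H. In the other day-4 groups it was 99.2 and 98.6 TPM (aNE_T), 117 and 129 TPM (pNE_T) and 102 and 90.7 TPM (pNE_H). Both pNE_M libraries lay above all 16 others. CCND1 rose in pNE_M over pNE (log2 difference 1.24, SE 0.10, limma adjusted p = 4.83e-07) and was higher than in pNE_T (log2 difference 1.08, SE 0.10, limma adjusted p = 2.34e-06), the latter lost without pNE_M replicate 2. The pNE_H value was lower than that of pNE_M (log2 difference -1.43, SE 0.10, limma adjusted p = 3.11e-07). For aNE_M over aNE the difference passed at the adjusted p alone (log2 difference 0.72, SE 0.10, limma adjusted p = 7.09e-05).

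CCND2 was highest in forebrain medium. It was 20.7 and 21.4 TPM in hPSC, 22.1 and 24.6 TPM in aNE, 51.6 and 54.8 TPM in aNE_T, 19.1 and 24.7 TPM in aNE_M and 40.1 and 36.2 TPM in aNE_H. In posterior cells it was 26.2 and 32.0 TPM in pNE, 46.8 and 54.1 TPM in pNE_T, 34.9 and 36.8 TPM in pNE_M and 36.9 and 36.2 TPM in pNE_H. The 4 libraries in forebrain medium were the 4 highest. CCND2 rose in aNE_T over aNE (log2 difference 1.16, SE 0.12, limma adjusted p = 1.34e-05) and was lower in aNE_M than in aNE_T (log2 difference -1.25, SE 0.12, limma adjusted p = 4.93e-06).

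CCND3 was highest in aNE_H at 40.1 and 37.0 TPM, against 32.1 and 33.4 TPM in hPSC and 19.3 and 21.4 TPM in aNE. In aNE_T it was 29.3 and 28.3 TPM and in aNE_M 30.8 and 28.1 TPM. In pNE it was 27.5 and 29.5 TPM, and in the posterior day-4 groups 20.5 and 21.4 TPM (pNE_T), 28.7 and 31.2 TPM (pNE_M) and 21.7 and 24.8 TPM (pNE_H). Of the posterior day-4 groups pNE_M was the highest. No comparison of 2 groups was called. For aNE_H over aNE it passed at the adjusted p alone (log2 difference 0.89, SE 0.09, limma adjusted p = 1e-05), while pNE_H over pNE had the other sign (log2 difference -0.28, SE 0.09, limma adjusted p = 0.0279).

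Of the kinases that pair with D cyclins, CDK6 changed and CDK4 was not called. CDK6 was at 5.72 and 4.03 TPM in hPSC, 16.4 and 14.5 TPM in aNE and 20.1 and 22.1 TPM in pNE. It rose in aNE (log2 difference 1.50, SE 0.14, limma adjusted p = 3.65e-06) and in pNE (log2 difference 1.92, SE 0.14, limma adjusted p = 3.95e-07). Later it was 10.4 and 11.1 TPM in aNE_T, 16.1 and 20.0 TPM in aNE_M and 21.5 and 20.0 TPM in aNE_H. The posterior levels were 28.3 and 30.7 TPM in pNE_T, 16.9 and 17.0 TPM in pNE_M and 38.0 and 45.1 TPM in pNE_H. The pNE_H libraries were the 2 highest, and pNE_M lay among the anterior groups. CDK6 was higher in pNE_T than aNE_T (log2 difference 1.37, SE 0.14, limma adjusted p = 1.24e-05) and in pNE_H than pNE_M (log2 difference 1.24, SE 0.14, limma adjusted p = 4.47e-05). CDK4 was 246 to 250.0 TPM in hPSC and 321 to 438 TPM in the other libraries and passed in aNE over hPSC at the adjusted p alone (log2 difference 0.44, SE 0.06, limma adjusted p = 3.86e-05). TSPAN31 overlaps CDK4 on the opposite strand, and the sources used here do not say whether counting used strand.

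CCNE1, the cyclin that leads into S phase, fell at day 2 and stayed below hPSC. It was at 56.5 and 56.1 TPM in hPSC, 22.8 and 21.7 TPM in aNE and 19.3 and 18.7 TPM in pNE. All 16 differentiated libraries, at 15.8 to 29.6 TPM, lay below both hPSC libraries. The fall was 2.47-fold in aNE (log2 difference -1.30, SE 0.10, limma adjusted p = 6.11e-07) and 2.87-fold in pNE (log2 difference -1.52, SE 0.10, limma adjusted p = 1.43e-07). Between differentiated groups no call was made. At the adjusted p alone it was higher in pNE_M than pNE_T (log2 difference 0.65, SE 0.10, limma adjusted p = 0.000343).

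CCNE2, at a lower level, differed between the origins at day 4 in forebrain and hindbrain media, where plating density differed too. It was 3.65 and 6.25 TPM in hPSC, whose replicates lay far apart, 3.91 and 3.70 TPM in aNE and 2.95 and 2.81 TPM in pNE. In forebrain medium it was 6.86 and 7.59 TPM in aNE_T and 2.67 and 3.39 TPM in pNE_T. In the other media it was 6.58 and 6.57 TPM (aNE_M), 4.47 and 5.28 TPM (pNE_M), 5.31 and 5.27 TPM (aNE_H) and 2.35 and 2.54 TPM (pNE_H). In each medium both anterior libraries were above both posterior ones. In forebrain medium the difference was called (log2 difference -1.03, SE 0.18, limma adjusted p = 0.0011), a call lost without aNE_T replicate 2 or pNE_T replicate 1 and under median-ratio scaling. In hindbrain medium it passed at the adjusted p alone (log2 difference -0.87, SE 0.18, limma adjusted p = 0.00394). In midbrain medium it did not pass (log2 difference -0.37, SE 0.18, limma adjusted p = 0.215).

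**Figure D3:**
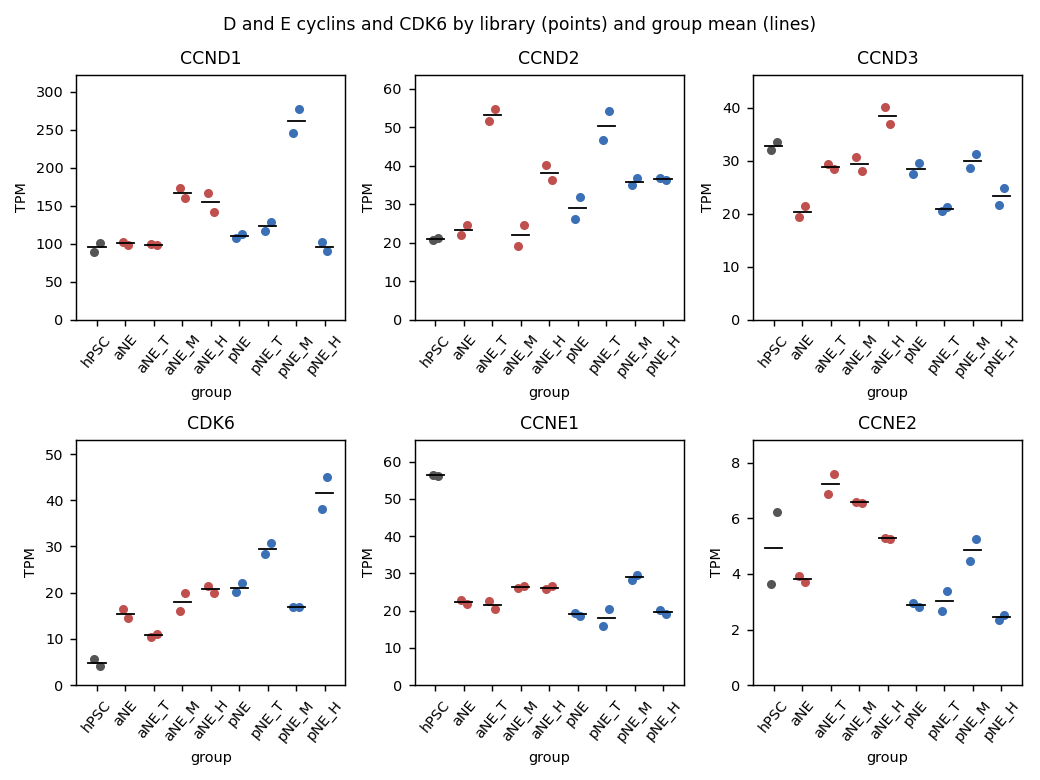
TPM of the D and E cyclins and CDK6 in each library (points) with group means (lines), grey for hPSC, red for aNE and its derivatives and blue for pNE and its derivatives; each vertical axis starts at 0. CCND1 peaks in pNE_M, CCND2 in forebrain medium, CCND3 in aNE_H and CDK6 in pNE_H, while CCNE1 is highest in hPSC.

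The later cyclins and kinases varied by a narrow margin and none was called. CCNB1, which with CDK1 drives entry into mitosis, was 263 to 264 TPM in hPSC and 207 to 307 TPM in the 16 other libraries. CCNA2, the S and G2 phase cyclin, was 97.6 to 99.4 and 73.8 to 93.7 TPM. CCNB2 was 83.0 to 89.4 and 91.3 to 123 TPM. CDK1 was 80.4 to 81.7 and 73.2 to 126 TPM, and its level in aNE_T passed over aNE at the adjusted p alone (log2 difference 0.51, SE 0.11, limma adjusted p = 0.00384). CDK2 was 35.1 to 42.9 and 38.4 to 58.0 TPM. CDC25A, the phosphatase that activates CDK2, was 82.8 to 89.2 TPM in hPSC and 58.1 to 82.3 TPM elsewhere.

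Among pocket proteins and E2F factors only E2F2 was called. RB1 was 17.0 and 14.1 TPM in hPSC, 17.6 to 33.0 TPM in differentiated libraries and highest in pNE_M at 33.0 and 30.0 TPM, passing over pNE at the adjusted p alone (log2 difference 0.65, SE 0.11, limma adjusted p = 0.000616). RBL1 (p107) stayed at 6.09 to 7.01 TPM in hPSC and 5.46 to 10.3 TPM elsewhere, and RBL2 (p130) at 6.30 to 8.01 and 8.16 to 12.7 TPM. E2F1, an activator of S-phase genes, was 26.1 to 30.9 TPM in hPSC, 18.9 to 33.9 TPM in differentiated libraries, 18.9 and 22.1 TPM in pNE and 33.9 and 31.7 TPM in pNE_M. E2F2 was 1.61 and 2.31 TPM in pNE and 4.77 and 6.25 TPM in pNE_M. In the other groups it was 2.87 and 3.64 TPM (hPSC), 3.53 and 3.07 TPM (aNE), 4.35 and 3.43 TPM (aNE_T), 3.35 and 3.96 TPM (aNE_M), 3.22 and 2.57 TPM (aNE_H), 3.32 and 3.28 TPM (pNE_T) and 2.82 and 2.28 TPM (pNE_H). The pNE_M libraries were the 2 highest of the series for E2F2, and the pNE libraries overlapped pNE_H at the low end. E2F2 rose (log2 difference 1.14, SE 0.19, limma adjusted p = 0.000369), a call lost without pNE replicate 1 or pNE_M replicate 2, and E2F1 passed at the adjusted p alone (log2 difference 0.66, SE 0.11, limma adjusted p = 0.000327). E2F3 was 26.0 to 26.2 TPM in hPSC and 18.4 to 28.3 TPM elsewhere.

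The helicase genes MCM2 to MCM7, PCNA and RRM2 were abundant in every group, and shifts in them were small. Of the MCM subunits, MCM5 showed the clearest step between day 2 and day 4. It was at 238 and 229.7 TPM in hPSC, 206 and 203 TPM in aNE and 183 and 211 TPM in pNE. In anterior cells it was then 115 and 107 TPM (aNE_T), 114 and 101 TPM (aNE_M) and 109.7 and 103 TPM (aNE_H). In posterior cells it was 114 and 122 TPM (pNE_T), 116 and 108 TPM (pNE_M) and 95.8 and 93.0 TPM (pNE_H). All 12 day-4 libraries lay below all 6 libraries of days 0 and 2. MCM5 fell in pNE_H (log2 difference -1.05, SE 0.08, limma adjusted p = 4.29e-07), a call lost under median-ratio scaling and without pNE replicate 2. The other 5 differences from day 2 were between -0.94 (aNE_H) and -0.73 (pNE_T) and passed at the adjusted p alone.

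In anterior cells most replication genes were lower at day 4 at the adjusted p alone. The count was 7 of 9 in aNE_T (14.6% of all genes passed as lower), 7 in aNE_M (18.8%) and 6 in aNE_H (17.5%). Over the alternatives these counts were 5 to 7, 4 to 7 and 4 to 6, and the midbrain count was lowest without aNE_M replicate 1 or aNE_M replicate 2. The median of the 9 was -0.40 in aNE_T, -0.26 in aNE_M and -0.28 in aNE_H, against 0.00, -0.02 and -0.04 over all genes. TYMS went the other way. It was 194 and 196 TPM in aNE, 207 and 205.5 TPM in aNE_T, 298 and 296 TPM in aNE_M and 280 and 276 TPM in aNE_H. In aNE_H the means of MCM7 (348.5 against 325.7 TPM) and RRM2 (262.1 against 248.1 TPM) were also above those of aNE. MCM3, whose promoter is shown above, went from 283 and 285 TPM in hPSC to 224 and 229 TPM in aNE and 157 and 149.6 TPM in aNE_T (log2 difference -0.56, SE 0.06, limma adjusted p = 7.71e-06). MCM6 went from 90.2 and 90.5 TPM in aNE to 58.1 and 60.0 TPM in aNE_M (log2 difference -0.60, SE 0.07, limma adjusted p = 1.22e-05). Its range was 91.8 to 95.5 TPM in hPSC and 64.2 to 82.0 TPM in posterior day-4 libraries, and in pNE it was 67.5 and 69.3 TPM.

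In posterior cells the counts at the adjusted p alone differed by medium. In pNE_T against pNE, 4 of 9 passed as lower (2 to 4 over the alternatives, lowest without pNE replicate 1 or pNE_T replicate 2; 18.1% of all genes) and 0 as higher. From pNE, 4 of 9 passed as higher in pNE_M (14.7% of all genes did) and 2 as lower (20.7% of all genes). In pNE_H 5 passed as lower (22.6% of all genes) and 0 as higher. Without pNE replicate 1 or pNE_M replicate 1 the higher count in pNE_M was 2. In pNE_H against pNE_M, at equal density, 8 of 9 were lower (6 to 8 over the alternatives; 10.7% of all genes passed as lower), with a median of -0.42 against -0.01 over all genes. MCM2 was 202 and 201 TPM in pNE_M and 151 and 137 TPM in pNE_H (log2 difference -0.48, SE 0.09, limma adjusted p = 0.00166). PCNA, the sliding clamp, was 283 and 285 TPM in pNE_M and 189.9 and 210.4 TPM in pNE_H (log2 difference -0.51, SE 0.09, limma adjusted p = 0.00143). Neither difference reached 2-fold. Over all groups MCM2 was 165 to 167 TPM in hPSC and 137 to 202 TPM in differentiated libraries, and PCNA 356 to 362 and 189.9 to 345 TPM. Between origins in hindbrain medium, where density differed too, 6 of 9 were lower in pNE_H than in aNE_H (4 to 6 over the alternatives; 12.7% of all genes).

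Of the remaining replication genes, MCM4 was 245 to 265 TPM in hPSC and 154 to 275 TPM elsewhere, MCM7 376 to 382 and 287 to 352 TPM. RRM2, a subunit of ribonucleotide reductase, was 252 to 283 and 169 to 266 TPM. TYMS makes thymidylate for DNA synthesis. It was 105 and 108 TPM in hPSC and 194 to 298 TPM in the 16 other libraries, all above hPSC. At the adjusted p alone it was higher in aNE (log2 difference 0.86, SE 0.05, limma adjusted p = 2.01e-08) and in pNE (log2 difference 0.94, SE 0.05, limma adjusted p = 8.88e-09). ENOSF1 and TYMSOS overlap TYMS on the opposite strand, and PCNA, RRM2 and TYMS have named pseudogene copies, so their levels are uncertain.

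**Figure D4:**
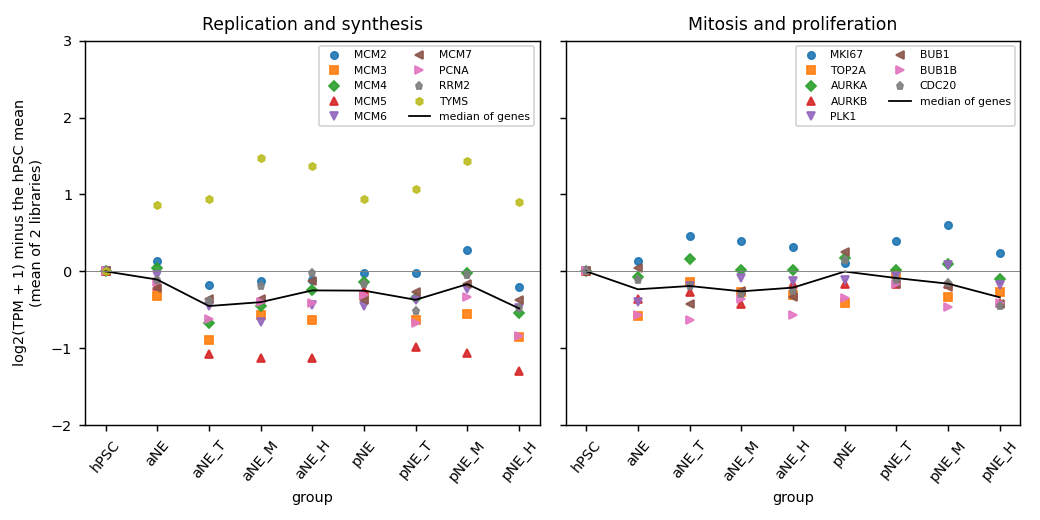
Mean log2(TPM + 1) of each gene minus its hPSC mean (vertical axis) by group (horizontal axis), for 9 replication genes (left) and 8 mitosis markers (right); the black line is the median of the genes shown. Among replication genes TYMS is highest in every differentiated group and MCM5 lowest in all 6 day-4 groups, and no mitosis marker departs from hPSC by as much as 1 log2 unit.

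No mitosis marker was called in any comparison. MKI67, the standard marker of cycling cells, was 33.8 and 35.6 TPM in hPSC and 35.9 at the lowest, 43.2 at the median and 53.9 at the highest TPM in the 16 other libraries. All 16 lay above both hPSC libraries, the nearest by less than 1 TPM. TOP2A, which untangles chromosomes, was 166 to 175 TPM in hPSC and 114 to 168 TPM elsewhere, lower in aNE at the adjusted p alone (log2 difference -0.58, SE 0.09, limma adjusted p = 0.000194). The kinases of mitosis ranged narrowly: AURKA 51.5 to 68.5 TPM, AURKB 104 to 139 TPM and PLK1 106 to 152 TPM in differentiated libraries. In hPSC they were 55.64 and 62.65 TPM (AURKA), 144.9 and 149.1 TPM (AURKB) and 141.1 and 139.8 TPM (PLK1). For AURKB all 16 differentiated libraries lay below both hPSC libraries. The spindle checkpoint kinase BUB1 was 88.2 to 89.6 TPM in hPSC, 61.5 to 114 TPM in differentiated libraries, 114 and 98.0 TPM in pNE and 61.5 and 70.2 TPM in pNE_H (log2 difference -0.68, SE 0.09, limma adjusted p = 4.23e-05), the widest of these differences from day 2. BUB1B was 89.4 to 93.7 TPM in hPSC and 58.0 to 90.9 TPM elsewhere, and CDC20, an activator of the anaphase-promoting complex, 241 to 247 and 175 to 274 TPM. MKI67, AURKA, BUB1 and CDC20 have named pseudogene copies, which leaves their levels uncertain.

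The 3 MYC genes followed 3 different courses. MYC was not called at day 2, with 56.5 and 48.6 TPM in hPSC, 65.4 and 62.5 TPM in aNE and 40.7 and 53.5 TPM in pNE. At day 4 it was 54.4 and 55.6 TPM in aNE_T, 8.06 and 5.29 TPM in aNE_M and 48.1 and 31.5 TPM in aNE_H. It was 37.2 and 34.0 TPM in pNE_T, 11.9 and 14.6 TPM in pNE_M and 14.2 and 10.8 TPM in pNE_H. The low groups were those in midbrain medium and pNE_H, and no library of theirs overlapped any other group. MYC fell 8.60-fold in aNE_M (log2 difference -3.10, SE 0.21, limma adjusted p = 1.39e-07), 3.36-fold in pNE_M (log2 difference -1.75, SE 0.21, limma adjusted p = 2.95e-05) and 3.55-fold in pNE_H (log2 difference -1.83, SE 0.21, limma adjusted p = 2.03e-05).

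In hindbrain medium the origins differed in MYC. MYC was lower in pNE_H than aNE_H (log2 difference -1.57, SE 0.21, limma adjusted p = 0.000135). Against forebrain medium it was lower in aNE_M (log2 difference -2.89, SE 0.21, limma adjusted p = 3.02e-07), in pNE_M (log2 difference -1.36, SE 0.21, limma adjusted p = 0.000325) and in pNE_H (log2 difference -1.44, SE 0.21, limma adjusted p = 0.000376), and for aNE_H the difference from aNE_T did not pass (log2 difference -0.49, SE 0.21, limma adjusted p = 0.115). It was higher in aNE_H than aNE_M (log2 difference 2.40, SE 0.21, limma adjusted p = 4.19e-06). Some markers of other cells were higher in a part of the groups where MYC was low, and not all of them followed MYC. MIXL1, a primitive streak gene, was 78.0 and 94.9 TPM in aNE_M and 12.2 and 10.9 TPM in pNE_M, and at most 1.18 TPM in the other libraries. TBXT, another such gene, was 2.72 and 4.01 TPM in aNE_M and 1.21 and 1.94 TPM in pNE_M. The summed 4 mesoderm markers were 81.1 to 99.7 TPM in aNE_M, 13.5 to 13.9 TPM in pNE_M and 3.64 to 4.73 TPM in hPSC. The summed 11 neuron markers, mostly TUBB3 and MAP2, were 581 to 615 TPM in aNE_M, 455 to 463 TPM in aNE and 78.3 to 92.2 TPM in pNE_H. In pNE_H the summed 4 endoderm markers were 12.8 to 16.0 TPM, against 2.62 to 4.07 TPM in pNE and 9.21 to 11.5 TPM in pNE_T, and the endoderm gene GATA4 was 6.59 and 5.63 TPM. The summed 4 neural crest markers were 13.9 to 17.9 TPM in pNE_H, 18.7 to 26.6 TPM in pNE_M and 0.931 to 1.85 TPM in pNE. They were highest in hPSC at 34.7 to 39.9 TPM, where MYC was not low. In aNE_H they were 8.97 to 12.3 TPM and in aNE_M 4.5 to 4.96 TPM. Of these markers, SOX10 was 16.2 and 12.7 TPM in pNE_H. FOXD3 was 20.2 and 11.6 TPM in pNE_M and 35.2 and 31.8 TPM in hPSC. The part of these cells in the MYC, MYCL, CCND1 and CDK6 values was not tested.

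MYCN, the MYC gene known for its role in neural progenitors, was lowest in forebrain medium. It was 129.7 and 136 TPM in hPSC, 72.3 and 68.8 TPM in aNE and 59.8 and 65.8 TPM in pNE. It was 25.2 and 26.9 TPM in aNE_T, 74.5 and 74.4 TPM in aNE_M and 130.1 and 114 TPM in aNE_H. Posterior cells had 38.1 and 48.1 TPM in pNE_T, 102 and 99.1 TPM in pNE_M and 95.1 and 85.6 TPM in pNE_H. Both forebrain groups lay below all others, and aNE_H overlapped the hPSC level. MYCN fell in pNE against hPSC (log2 difference -1.07, SE 0.10, limma adjusted p = 3.81e-06) and in aNE_T against aNE (log2 difference -1.40, SE 0.10, limma adjusted p = 4.73e-07).

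Within each origin MYCN was higher in the midbrain and hindbrain media than in forebrain medium. The difference from aNE_T was 1.48 (SE 0.10, adjusted p = 1.76e-07) in aNE_M and 2.18 (SE 0.10, adjusted p = 1.78e-08) in aNE_H, as limma log2 differences. From pNE_T it was 1.21 (SE 0.10, adjusted p = 1.47e-06) in pNE_M and 1.06 (SE 0.10, adjusted p = 1.14e-05) in pNE_H. The last call was lost without pNE_T replicate 1 or pNE_H replicate 1. In both origins MYC was lower and MYCN higher in midbrain than in forebrain medium. MYCNOS overlaps MYCN on the opposite strand.

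MYCL was lower than in hPSC in all 16 differentiated libraries. It was 21.1 and 22.6 TPM in hPSC, 11.6 and 11.9 TPM in aNE and 10.6 and 6.69 TPM in pNE, whose replicates differed. At day 4 it was 9.67 and 9.47 TPM in aNE_T, 7.60 and 7.87 TPM in aNE_M and 8.70 and 8.37 TPM in aNE_H. Posterior cells had 6.86 and 6.82 TPM in pNE_T, 6.66 and 6.04 TPM in pNE_M and 3.42 and 3.47 TPM in pNE_H. The pNE_H libraries were the 2 lowest of the series. MYCL fell in pNE against hPSC (log2 difference -1.27, SE 0.15, limma adjusted p = 2.65e-05), a call lost without pNE replicate 2. It fell from pNE to pNE_H (log2 difference -1.09, SE 0.15, limma adjusted p = 0.000101), a call lost without pNE replicate 1. It was lower in pNE_H than in aNE_H (log2 difference -1.10, SE 0.15, limma adjusted p = 0.000161).

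**Figure D5:**
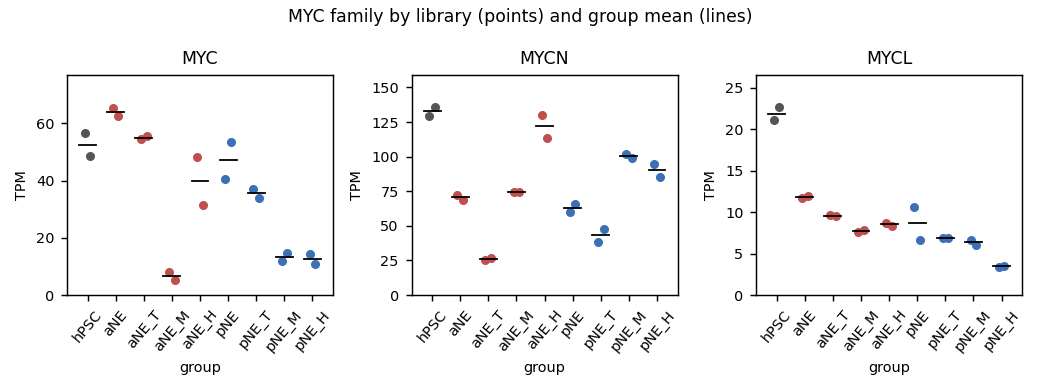
TPM of MYC, MYCN and MYCL in each library (points) with group means (lines), grey for hPSC, red for aNE and its derivatives and blue for pNE and its derivatives; each vertical axis starts at 0. MYC is lowest in aNE_M, pNE_M and pNE_H, MYCN is lowest in the forebrain-medium groups, and MYCL is highest in hPSC and lowest in pNE_H.

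Genes that pair with MAX and oppose MYC were examined as a list of 8 with MAX and its partners. MXD4 rose in aNE over hPSC, 36.9 ± 1.44 against 16.2 ± 0.473 TPM (SD, n = 2 each; log2 difference 1.14, SE 0.11, limma adjusted p = 3.85e-06). MXD3 rose from pNE in all 3 media, the largest in pNE_T, 19.2 ± 2.32 against 6.76 ± 0.802 TPM (SD, n = 2 each; log2 difference 1.38, SE 0.22, limma adjusted p = 0.000309). MXI1 rose in aNE_H over aNE, 20.7 ± 1.24 against 7.41 ± 1.03 TPM (SD, n = 2 each; log2 difference 1.38, SE 0.14, limma adjusted p = 5.93e-06). In each of these comparisons the named gene was the only one of the 8 called. Within anterior cells MXD4 was lower in hindbrain than in forebrain medium, 23.3 ± 1.87 against 65.9 ± 0.813 TPM (SD, n = 2 each; log2 difference -1.47, SE 0.11, limma adjusted p = 9.96e-07). MXI1 was lower in pNE_H than in aNE_H, 9.25 ± 0.873 against 20.7 ± 1.24 TPM (SD, n = 2 each; log2 difference -1.09, SE 0.14, limma adjusted p = 6.39e-05).

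Beyond the 45 genes, lists of 20 replication, 22 mitosis and 20 G1 and E2F genes gave few calls. Against hPSC none of these 62 genes was called in aNE or pNE (13.5% and 12.9% of all genes were), while 7 of 20, 7 of 22 and 11 of 20 passed in aNE at the limma adjusted p alone, against 41.5% of all genes. The licensing factor CDC6 was lower in aNE_T than aNE, 58.3 ± 5.93 against 128 ± 0.550 TPM (SD, n = 2 each; log2 difference -1.12, SE 0.09, limma adjusted p = 1.18e-06). CENPA, the centromeric histone, was higher in aNE_M than aNE, 51.5 ± 0.575 against 17.7 ± 1.99 TPM (SD, n = 2 each; log2 difference 1.49, SE 0.11, limma adjusted p = 3.56e-07). WEE1, the kinase that holds CDK1 inactive, fell in midbrain medium in both origins. It was 46.2 ± 2.72 against 103 ± 4.75 TPM (SD, n = 2 each; log2 difference -1.14, SE 0.08, limma adjusted p = 1.72e-07) in aNE_M against aNE. It was 48.0 ± 1.27 against 106 ± 1.48 TPM (SD, n = 2 each; log2 difference -1.13, SE 0.08, limma adjusted p = 1.91e-07) in pNE_M against pNE. Against forebrain medium WEE1 was lower in aNE_M, 46.2 ± 2.72 against 194 ± 8.30 TPM (SD, n = 2 each; log2 difference -2.05, SE 0.08, limma adjusted p = 6.8e-10). PKMYT1, the related membrane-bound kinase, fell in hindbrain medium from pNE, 31.6 ± 6.33 against 72.0 ± 7.65 TPM (SD, n = 2 each; log2 difference -1.17, SE 0.15, limma adjusted p = 4.17e-05). E2F8, a repressor E2F, was higher in pNE_T than aNE_T, 8.88 ± 0.472 against 2.97 ± 0.298 TPM (SD, n = 2 each; log2 difference 1.32, SE 0.25, limma adjusted p = 0.00201).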

How the data were processed

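The authors deposited 1 table of TPM per gene and library. Per the submitters' processing notes, the tools were bcl2fastq, FastQC, Trim Galore, kallisto and deepTools with build hg38; versions, annotation and strand handling are not given in the sources used here. Per the labels' protocols, RNA was selected on poly-T beads and primed with random hexamers. A transcript identifier stood in place of a symbol in 7898 of the 37550 rows. TPM hides depth, and a TPM level shifts when other genes shift. Values were analysed as log2(TPM + 1) after dropping genes that did not reach 1 TPM in 2 or more libraries, which left 17033. limma 3.58.1 (R 4.3.3) modelled all 18 libraries with a mean for every group (9 residual degrees of freedom, variance trend), with two-sided p adjusted by Benjamini-Hochberg over all tested genes. Differences understate the change of low genes. The fit was tested on simulated data. Alternatives were a pseudocount of 0.1, no filter (27207 genes), median-ratio scaling, a replicate block and leaving out single libraries. Promoters and positions came from RefSeq GRCh38.p14; in GENCODE 29, 27 of the 45 genes overlap another gene. A named pseudogene copy makes 13 levels uncertain (CCND2, CCND3, CDK4, CCNB2, E2F3, PCNA, RRM2, TYMS, MKI67, AURKA, BUB1, CDC20 and MYCL). The genes and lists were chosen with earlier results of these data known, so no list is independent support. Most genes called at least once that reach 5 TPM are given in every library. Most other genes are given by range, and some for single groups where a comparison names them. From each further list, at most the 2 largest calls per comparison with at least 5 TPM were eligible to be named. P-values rest on the spread between replicate libraries, pooled over all groups for each gene and moderated toward the trend over genes.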

Additional observations from a re-analysis of the deposited data

Results flagged for a closer look

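In all, 9 responses to a medium differed between the origins by the interaction test, which subtracts the change from aNE from the change from pNE in the same medium. Of the 44 tested genes, 2 were called in forebrain, 3 in midbrain and 4 in hindbrain medium. The shares of all genes called were 7.14%, 7.02% and 7.83%, so the set was not far from them. CDKN1C gave 1.70 (SE 0.20, adjusted p = 5.97e-05) in forebrain, 1.70 (SE 0.20, adjusted p = 6.04e-05) in midbrain and 3.51 (SE 0.20, adjusted p = 1.07e-07) in hindbrain medium, as limma log2 differences. In hindbrain medium CDKN1C rose from pNE, and its value for aNE_H against aNE was -0.78 (SE 0.14, adjusted p = 0.000906), by limma.

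CDKN2A gave -2.41 (SE 0.27, adjusted p = 4.24e-05) in forebrain and -2.59 (SE 0.27, adjusted p = 2.23e-05) in hindbrain medium, by limma. MYC gave 1.36 (SE 0.30, adjusted p = 0.00874) in midbrain and -1.13 (SE 0.30, adjusted p = 0.0222) in hindbrain medium, by limma. E2F2 gave 1.02 (SE 0.26, adjusted p = 0.021) in midbrain medium, and CCND3 gave -1.17 (SE 0.13, adjusted p = 4.07e-05) in hindbrain medium. The E2F2 call and the hindbrain MYC call were lost without single libraries (limma adjusted p up to 0.0937 and 0.0866). For E2F2 these were aNE, aNE_M or pNE replicate 1 and pNE_M replicate 2. For MYC they were either aNE replicate, aNE_H replicate 1, pNE replicate 2 or pNE_H replicate 2. Plating density differed between the origins at day 4 but not at day 2, so it cannot be told apart from origin in all 9.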

How the results depend on the processing

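Of 61 calls, 49 held in every alternative, 12 were lost in at least 1 and none reversed; where a loss is named above, the cause was not tested. With a pseudocount of 0.1 the count for pNE_M against aNE_M went from 0 to 1 (MYC). The same pseudocount added calls of CCNE2 and CDKN2D in pNE_H against aNE_H, CDKN2D in pNE_H against pNE and E2F2 in pNE_H against pNE_M. It lost those of CDKN2A in aNE_M against aNE_T and in aNE_H against aNE_M.

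Leaving out single libraries moved these counts: aNE_M against aNE, 1 to 2 (MCM5 added without aNE_M replicate 1); aNE_H against aNE, 0 to 1 (CDKN2A without aNE_H replicate 1); pNE_M against aNE_M, 0 to 1 (MYC without aNE_M or pNE_M replicate 1); pNE_H against pNE_T, 1 to 2 (MYCN lost without pNE_T or pNE_H replicate 1); and the forebrain interaction, 2 to 4 (CDK6 and MYCN added without pNE_T replicate 1; CDK6 also without aNE or pNE replicate 2). These were the largest moves in proportion. Counts of some other comparisons moved as well, among them pNE_H against aNE_H and pNE_H against pNE. With an arm of 1 library the lone sample is assumed to vary like the other groups. CDK6 was also called in pNE_H against pNE (log2 1.04) and against aNE_H (log2 1.02) under median-ratio scaling, which moved the median of all genes by at most 0.079 and turned the sign of the members' median in pNE_H against pNE (-0.056 to 0.038), pNE_T against aNE_T (-0.057 to 0.003) and the forebrain interaction (-0.006 to 0.041).

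Replicate numbers did not pair the libraries: over 36 pairs of groups the correlation of same-numbered deviations was -0.090 to 0.076. With the replicate number as a block the counts of calls were the same, for example 5 for aNE against hPSC and 6 for pNE against hPSC. TPM gives no detection limit. Of the 12 lost calls, 6 were of CDKN2A, E2F2 or CCNE2, which stayed under 10 TPM in every library.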

Other observations

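Some p53 targets that rose at day 2 were lower again at day 4. MDM2, the ubiquitin ligase that limits p53, was 23.7 ± 6.13 against 68.1 ± 6.40 TPM (SD, n = 2 each; log2 difference -1.50, SE 0.18, limma adjusted p = 2.72e-05) in pNE_T against pNE. BBC3, a pro-apoptotic target, was 28.2 ± 6.94 against 74.1 ± 2.36 TPM (SD, n = 2 each; log2 difference -1.38, SE 0.15, limma adjusted p = 9.87e-06) in aNE_M against aNE. In pNE_M against pNE it was 12.1 ± 0.130 against 53.1 ± 6.31 TPM (SD, n = 2 each; log2 difference -2.04, SE 0.15, limma adjusted p = 2.47e-07). CDKN1A, of the same target class, was not called in any of these comparisons, at -0.20 (SE 0.07, adjusted p = 0.032) in pNE_T, 0.43 (SE 0.07, adjusted p = 0.000243) in aNE_M and -0.13 (SE 0.07, adjusted p = 0.154) in pNE_M, as limma log2 differences. Of the 14 targets, 4 fell and none rose in pNE_H against pNE, where 12.3% of all genes were called in either direction.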
